A study of Mus musculus with 12 samples.

Results

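MHC class II presentation was examined through 7 named genes: the classical class II chains H2-Aa, H2-Ab1 and H2-Eb1, the invariant chain Cd74, the peptide exchange chains H2-DMa and H2-DMb1, and the transactivator Ciita. They were picked by gene symbol and not by a cut on measured values, but with earlier results of these data known. Of the 7, 6 were among the 15089 genes of the count table. Ciita was not analysed here. RNA came from cortical astrocytes of mice on postnatal day 16, collected with magnetic beads against ACSA-2 (encoded by Atp1b2), and was sequenced as total RNA in 12 libraries, 4 per genotype. All mice carried 1 copy of Nex-Cre, which the study describes as a driver of post-mitotic glutamatergic neurons, chiefly of cortex and hippocampus. Deletion of floxed Nmnat2 was thus directed at those neurons and not at the astrocytes that were sequenced. Whether the astrocytes kept Nmnat2 was not tested. The control, ctrl-2, had 1 floxed Nmnat2 allele (Nmnat2f/+) and, per the series description, 1 null allele of Sarm1, while the methods of the study also admit littermates with none. cKO;S/+ mice (cKOA in the labels) had 2 floxed Nmnat2 alleles and 1 Sarm1 null allele, and cKO;S/S mice (cKOB) had 2 of each, so the mutants differ from each other in Sarm1 dose in every cell. Sarm1 loss is thus not limited to neurons, and no group had wild-type Nmnat2 with no Cre.

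Class II molecules present peptides from endocytosed protein to CD4 T cells. Their alpha and beta chains assemble around the invariant chain CD74, which fills the groove until lysosomal cathepsins trim it to the fragment CLIP; H2-DM then exchanges CLIP for antigen peptide, and H2-O restrains H2-DM. The chain, invariant chain and DM genes share an upstream module of X and Y boxes, to which RFX, CREB and NF-Y bind and recruit CIITA. In brain, the molecules are best known from border-associated macrophages, dendritic cells and activated microglia, and resting parenchymal cells carry little of them.

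Total counts ran from 16506627 to 22159404 per library, with no library far apart in depth. Nmnat2, the gene deleted in the neurons, measured 35.6 to 42.4 CPM (read counts scaled to a common library size with TMM, the trimmed mean of M values of edgeR) in ctrl-2, 20.3 to 29.4 in cKO;S/+ and 19.9 to 42.6 in cKO;S/S. Nmnat2 was thus below ctrl-2 in cKO;S/+ (log2 difference -0.76 ± 0.192, SE, adjusted p = 0.0341, quasi-likelihood test of edgeR). In cKO;S/S, with the same floxed alleles, it did not pass (-0.35 ± 0.190, adjusted p = 0.481), and replicate 15 lay above every ctrl-2 library. Which cells gave the Nmnat2 reads was not tested. The 5 neuron markers summed to 406.5 to 505.1 CPM in ctrl-2, 351.4 to 462.3 in cKO;S/+ and 439.3 to 522.5 in cKO;S/S. Sarm1 reads remained in cKO;S/S, at 4.82 to 7.22 CPM against 5.73 to 12.8 in ctrl-2 (-0.63 on the log2 scale, adjusted p = 0.379). The 12 astrocyte markers summed to between 28760 and 32040 CPM in ctrl-2, between 23200 and 29500 in cKO;S/+ and between 17910 and 29510 in cKO;S/S, so the labelled cell type was present in all 12 libraries. All 13 microglia markers were also measured and are taken up beside the results they accompany. Xist was above 10 CPM in 1 ctrl-2 library (replicate 7), 3 cKO;S/+ libraries (8, 9 and 10) and 2 cKO;S/S libraries (16 and 17), so the sex of the mice was not balanced over the groups.

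The upstream sequences of 3 members are shown first, because the 3 hold the same pair of letters. Fold changes of H2-Aa and H2-Eb1 lay below 0 and those of H2-DMb1 above 0 in both mutants. None of these differences passed the quasi-likelihood test of edgeR, and H2-DMb1 in cKO;S/S was near 0 (0.09 on the log2 scale, adjusted p = 0.931). The 130 bases before the RefSeq start (GRCm38.p6, read 5′ to 3′ on the gene's own strand) are printed in lower case. Capitals mark GNAAC, the core of the X box, followed by TGATTGG, the Y box, which is an inverted CCAAT element. H2-Aa spans chr17:34287824-34287953 (minus strand), H2-Eb1 chr17:34305737-34305866 (plus strand) and H2-DMb1 chr17:34153061-34153190 (plus strand).
H2-Aa: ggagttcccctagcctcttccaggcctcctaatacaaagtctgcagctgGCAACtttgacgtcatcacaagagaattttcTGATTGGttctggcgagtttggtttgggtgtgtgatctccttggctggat
H2-Eb1: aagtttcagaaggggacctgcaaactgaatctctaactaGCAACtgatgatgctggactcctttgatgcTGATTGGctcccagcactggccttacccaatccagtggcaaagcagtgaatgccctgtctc
H2-DMb1: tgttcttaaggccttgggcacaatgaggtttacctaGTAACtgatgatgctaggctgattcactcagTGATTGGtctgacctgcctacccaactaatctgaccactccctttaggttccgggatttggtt
The capitals stood 26, 25 and 26 bases apart in H2-Aa, H2-Eb1 and H2-DMb1. The same pair was found upstream of the H2-O chain genes, which are not members but rose in cKO;S/+ as described further on, at chr17:34092249-34092378 for H2-Oa (gap of 26 bases) and chr17:34238775-34238904 for H2-Ob (gap of 23 bases), both on the plus strand.
H2-Oa: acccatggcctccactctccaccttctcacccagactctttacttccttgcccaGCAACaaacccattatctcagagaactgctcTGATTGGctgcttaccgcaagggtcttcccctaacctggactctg
H2-Ob: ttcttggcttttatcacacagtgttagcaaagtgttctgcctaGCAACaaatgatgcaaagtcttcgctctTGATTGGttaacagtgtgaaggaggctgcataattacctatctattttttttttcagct
Over the 250 bases before the start of 32851 RefSeq promoters, TGATTGG occurred on either strand in 7.23% and GNAAC with TGATTGG 15 to 45 bases downstream in 0.721% (237 promoters). The letters were chosen after these promoters had been read. Neither of the 2 start sites listed for H2-DMa held the pair or TGATTGG in this window, and H2-DMb2, also no member, held TGATTGG without the pair. The upstream sequences of the members H2-Ab1 and Cd74 were not examined here. A match is a description of letters only.

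The first question was how the class II genes of sorted astrocytes differ when glutamatergic neurons lose Nmnat2 and 1 Sarm1 allele remains. In cKO;S/+ against ctrl-2, Cd74 and H2-DMa rose by 1.03 and 1.27 on the log2 scale and H2-DMb1 lay above ctrl-2 in 3 of 4 libraries, whereas none of the chain genes H2-Aa, H2-Ab1 and H2-Eb1 rose. Of the 6 members, 2 passed the test (adjusted p under 0.05), both higher, against 7.28% of all 15089 genes in either direction and 5.9% higher. Over all genes 890 were higher and 208 lower, and 805 and 371 with upper-quartile scaling. The median log2 difference of the members was 0.397, against -0.00197 over all genes, and 3 of 6 lay above 0. In these bulk libraries fewer cells of a type and less RNA per cell cannot be told apart.

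H2-Aa (Entrez 14960, mm10 chromosome 17, 34282751 to 34287771, minus strand, 5 exons) encodes the alpha chain of I-A. It stood at 3.67, 1.72, 3.30 and 3.59 CPM in ctrl-2 replicates 4, 5, 6 and 7, at 2.25, 2.18, 1.71 and 1.10 CPM in cKO;S/+ replicates 8, 9, 10 and 14, and at 1.22, 2.24, 1.28 and 0.998 CPM in cKO;S/S replicates 15, 16, 17 and 18. Replicates 4, 6 and 7 of ctrl-2 were above every mutant library, and replicate 5 lay among the mutants. The means were 3.07 ± 0.916 (SD, n = 4), 1.81 ± 0.526 and 1.43 ± 0.551 CPM. Against ctrl-2 the log2 difference was -0.76 ± 0.311 (SE, adjusted p = 0.160, edgeR) for cKO;S/+ and -1.10 ± 0.318 (adjusted p = 0.338) for cKO;S/S, with 95% intervals of -1.43 to -0.0866 and -1.79 to -0.411. Neither passed over all genes. These values rest on 17 to 77 reads per library.

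H2-Ab1 (Entrez 14961, chromosome 17, 34263227 to 34269418, plus strand, 6 exons), the partner beta chain of I-A, was the most abundant chain gene per kb of exon in all 3 genotypes. Its levels were 9.73, 5.20, 5.10 and 8.11 CPM in ctrl-2, then 6.98, 5.49, 7.66 and 5.08 CPM in cKO;S/+, and 4.02, 5.57, 4.69 and 3.76 CPM in cKO;S/S, in the same order of replicates. The cKO;S/+ libraries lay within the range of ctrl-2 but for replicate 14, and 3 of 4 cKO;S/S libraries lay below all ctrl-2 libraries. Group means were 7.03 ± 2.28 (SD, n = 4), 6.31 ± 1.22 and 4.51 ± 0.809 CPM. The log2 difference of cKO;S/+ from ctrl-2 was -0.16 ± 0.224 (SE, adjusted p = 0.715, edgeR), and its 95% interval of -0.642 to 0.328 leaves out a doubling. For cKO;S/S it was -0.64 ± 0.229 (adjusted p = 0.354).

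H2-Eb1 (Entrez 14969, chromosome 17, 34305867 to 34316674, plus strand, 6 exons) encodes the beta chain of I-E. It measured 4.96, 1.86, 2.97 and 3.01 CPM in ctrl-2, then 2.59, 1.03, 2.86 and 2.32 CPM in cKO;S/+, and 1.78, 1.95, 1.01 and 1.53 CPM in cKO;S/S. Replicate 4 of ctrl-2 was the highest library, replicates 9 and 17 of the mutants were the lowest, and the groups overlapped. From ctrl-2 (3.20 ± 1.29 CPM, SD, n = 4) cKO;S/+ differed by -0.53 ± 0.337 (SE, adjusted p = 0.362, edgeR) and cKO;S/S by -1.03 ± 0.348 (adjusted p = 0.346), on the log2 scale. H2-Ea, the alpha chain that pairs with it, was not analysed here.

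Cd74 (Entrez 16149, chromosome 18, 60803849 to 60812652, plus strand, 9 exons), the invariant chain that chaperones new class II molecules and also serves as a receptor for MIF, was the most abundant member. It stood at 22.5, 14.4, 14.5 and 14.9 CPM in ctrl-2, at 42.4, 33.8, 42.4 and 16.3 CPM in cKO;S/+, and at 14.7, 20.4, 22.7 and 13.1 CPM in cKO;S/S. Replicates 8, 9 and 10 of cKO;S/+ were above all others, and replicate 14 fell within the ctrl-2 range. From a ctrl-2 mean of 16.6 ± 3.97 CPM (SD, n = 4), Cd74 rose to 33.7 ± 12.3 CPM in cKO;S/+ (1.03 ± 0.276 on the log2 scale, SE, adjusted p = 0.0426, edgeR). It differed by 0.10 ± 0.278 (adjusted p = 0.914) in cKO;S/S, where the 95% interval of -0.507 to 0.698 leaves out a doubling. The call in cKO;S/+ was near the threshold: leaving out any of ctrl-2 replicates 4 to 7, cKO;S/+ replicates 8 to 10 or cKO;S/S replicates 15 and 16 gave an adjusted p of 0.051 to 0.148, limma-voom gave 0.067, the fit of the 2 groups alone 0.0669, and leaving out replicate 14 gave 0.00172.

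H2-DMa (Entrez 14998, chromosome 17, 34122832 to 34139101, plus strand, 6 exons) encodes the alpha chain of the exchange factor. It stood at 6.97, 8.45, 5.32 and 4.42 CPM in ctrl-2, at 17.9, 15.7, 18.6 and 8.56 CPM in cKO;S/+, and at 9.86, 6.03, 12.3 and 7.98 CPM in cKO;S/S. All 4 cKO;S/+ libraries were above all 4 ctrl-2 libraries, replicate 14 only just above ctrl-2 replicate 5, and 2 of 4 cKO;S/S libraries were above every ctrl-2 library. H2-DMa was 1 of 6 members whose groups did not overlap, against 11.3% of all genes in either direction and 6.53% higher. In the other comparisons 0 of 6 members separated, against 6.02% of genes for cKO;S/S with ctrl-2 and 5.48% between the mutants. It rose from 6.29 ± 1.79 to 15.2 ± 4.599 CPM (SD, n = 4) in cKO;S/+, by 1.27 ± 0.277 on the log2 scale (SE, adjusted p = 0.0229, edgeR), and in cKO;S/S it differed from ctrl-2 by 0.52 ± 0.280 (adjusted p = 0.479). An exact two-sided permutation test of its 8 libraries in cKO;S/+ against ctrl-2 gave p = 0.0286, the smallest that 70 assignments allow, and 0.171 after adjustment over the 18 tests of 6 members in 3 comparisons. Leaving out ctrl-2 replicates 4, 6 or 7 or cKO;S/+ replicates 8 or 10 ended its call, at adjusted p of 0.0592 to 0.0866.

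H2-DMb1 (Entrez 14999, chromosome 17, 34153191 to 34160229, plus strand, 6 exons) encodes the beta chain of H2-DM. It measured 4.15, 3.44, 3.19 and 2.38 CPM in ctrl-2, then 8.11, 6.81, 7.62 and 2.87 CPM in cKO;S/+, and 3.08, 3.22, 4.85 and 2.82 CPM in cKO;S/S. Again replicates 8, 9 and 10 were the highest libraries and replicate 14 lay within ctrl-2. For cKO;S/+ the log2 difference from ctrl-2 was 0.95 ± 0.295 (SE, adjusted p = 0.0702, edgeR), which missed the threshold, and for cKO;S/S it was 0.09 ± 0.302 (adjusted p = 0.931). The cKO;S/+ difference passed by DESeq2 (adjusted p = 0.024), by the likelihood ratio test (0.026) and in edgeR without replicate 14 (0.003). Reads of H2-DMb1 and of its neighbour and near copy H2-DMb2 may have been split by the counting, so both are uncertain. H2-DMb2 was at 0.294 to 1.70 CPM over the 12 libraries.

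**Figure D1:**
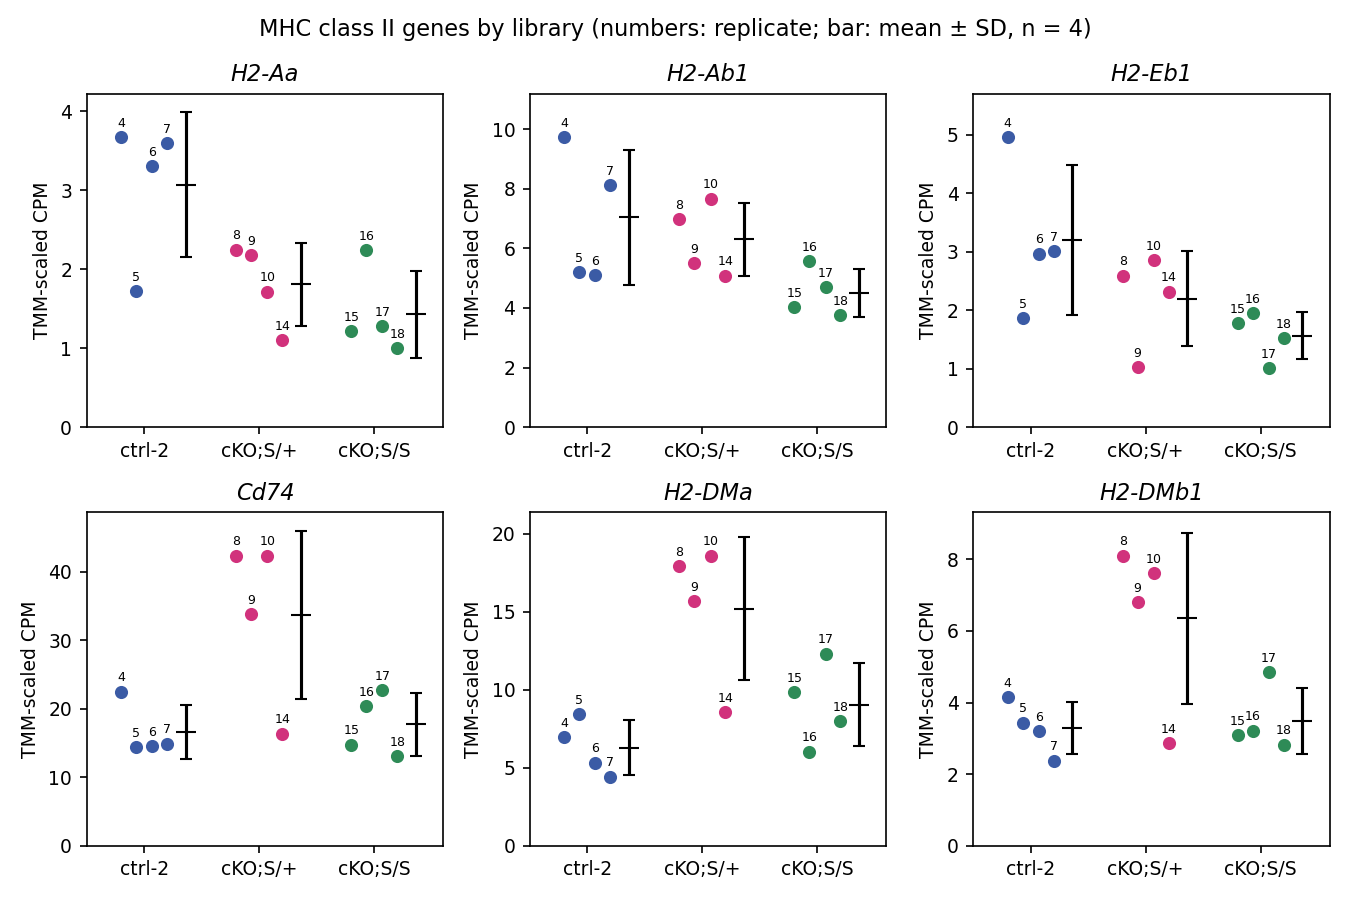
CPM of the 6 measured class II genes (one panel each, y axes starting at 0) in every library, numbered by replicate and coloured by genotype, with the mean and SD of 4 libraries as a bar at the right of each group. In Cd74, H2-DMa and H2-DMb1 the cKO;S/+ replicates 8, 9 and 10 sit above all other libraries and replicate 14 sits low, while H2-Aa, H2-Ab1 and H2-Eb1 show no such rise.

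The second question was what remains of these differences when both Sarm1 alleles are null. In cKO;S/S against ctrl-2 none of the 6 members passed the quasi-likelihood test of edgeR, as for 0% of all genes, and the likelihood ratio test, DESeq2 and limma-voom also called 0 members. Before adjustment 3 members had p under 0.05, all lower, where all genes gave 11.7% in either direction and 4.87% lower. The 3 were the classical chains H2-Aa, H2-Eb1 and H2-Ab1, with unadjusted p of 0.00436, 0.0114 and 0.0147 from the same edgeR fit.

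Whether the mutant effects differ was tested by comparing the mutants with each other. There 0 of 6 members passed the quasi-likelihood test of edgeR (0% of all genes). Limma-voom called 0, and DESeq2 and the likelihood ratio test called 1, Cd74. Before adjustment 3 members had p under 0.05, all higher in cKO;S/+, against 18.3% of all genes in either direction and 9.17% higher. The log2 differences were 0.93 for Cd74 (adjusted p = 0.155, edgeR), 0.86 for H2-DMb1 (adjusted p = 0.170) and 0.75 for H2-DMa (adjusted p = 0.183). For the chains they were 0.34 for H2-Aa, 0.49 for H2-Ab1 and 0.50 for H2-Eb1, at adjusted p of 0.651, 0.282 and 0.509. Without cKO;S/+ replicate 14 the comparison called 3 members, Cd74, H2-DMa and H2-DMb1, and 1677 genes.

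**Figure D2:**
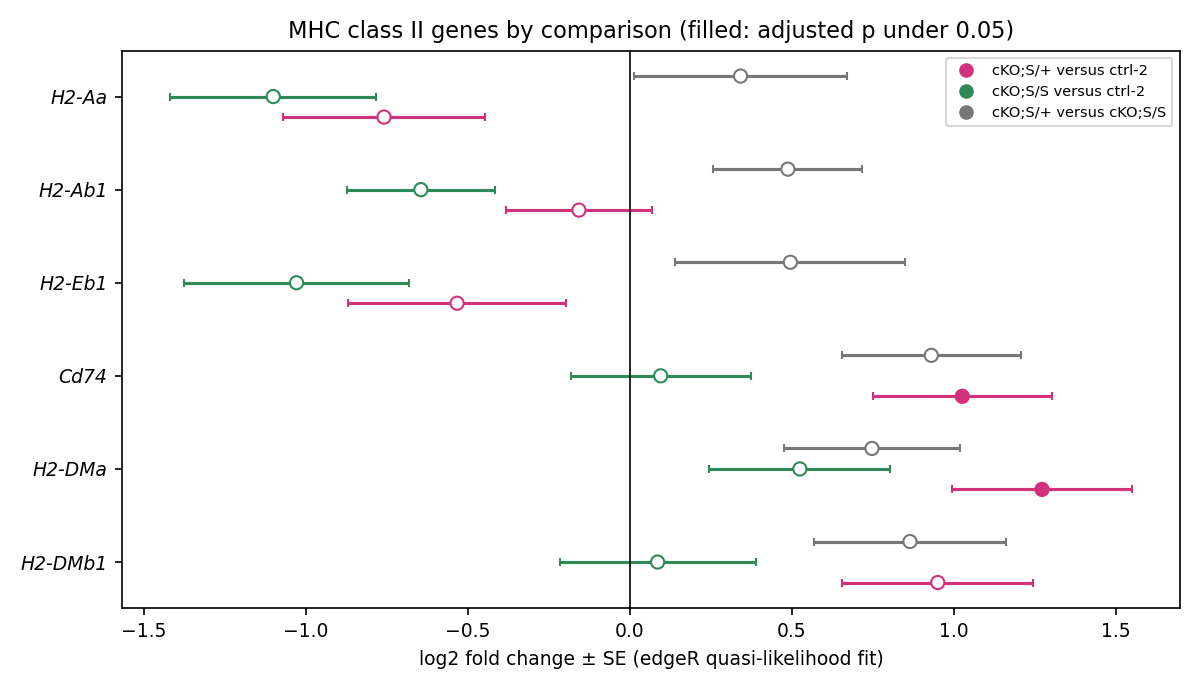
Log2 fold change with its standard error (x axis) of each class II gene (y axis) in the 3 comparisons, from one edgeR fit of 12 libraries, with filled points for an adjusted p under 0.05. The chains lie at or below 0 against ctrl-2 in both mutants, whereas Cd74 at 1.03 and H2-DMa at 1.27 in cKO;S/+ are the 2 filled points.

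Levels of different genes were compared as CPM per kb of exon. In ctrl-2 the order was Cd74 (11.7 ± 2.81, SD, n = 4), H2-Ab1 (5.90 ± 1.91), H2-DMa (3.79 ± 1.08), H2-Aa (2.87 ± 0.857), H2-DMb1 (2.56 ± 0.569) and H2-Eb1 (1.92 ± 0.772). Cd74 was above H2-Ab1 in every ctrl-2 library. From H2-Ab1 down the ranges of neighbours in this order overlapped, so these ranges do not settle the order of neighbours. H2-Ab1 lay above H2-Aa, H2-DMb1 and H2-Eb1 without overlap. In cKO;S/+ H2-DMa (9.16 ± 2.77) stood above H2-Ab1 (5.29 ± 1.02), the reverse of the order of means in ctrl-2. The ranges overlapped, but H2-DMa was the higher within every cKO;S/+ library, and in ctrl-2 within replicate 5 only. H2-DMb1 (4.95 ± 1.86) stood above H2-Aa (1.69 ± 0.493) there without overlap. In cKO;S/S the means were 12.5 for Cd74, 5.455 for H2-DMa, 3.78 for H2-Ab1, 2.72 for H2-DMb1, 1.34 for H2-Aa and 0.939 for H2-Eb1.

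The makeup of the class II reads differed between ctrl-2 and both mutants. Per kb, Cd74 exceeded H2-Aa by a ratio of 4.63, 6.32, 3.32 and 3.13 in ctrl-2, of 14.3, 11.8, 18.7 and 11.2 in cKO;S/+, and of 9.15, 6.88, 13.4 and 9.91 in cKO;S/S. All 8 mutant libraries were above all 4 ctrl-2 libraries, and the mutants overlapped each other. H2-Aa, H2-Ab1 and H2-Eb1 made up 35.3, 25.1, 33.1 and 40.4% of the counts of the 6 members in ctrl-2, 14.7, 13.4, 15.1 and 23.4% in cKO;S/+, and 20.2, 24.8, 14.9 and 20.8% in cKO;S/S. Again the mutants lay below ctrl-2 without overlap, although cKO;S/S replicate 16 nearly met ctrl-2 replicate 5. Replicate 14, which was low in Cd74 and DM, also kept a chain share below every ctrl-2 library. Other ratios per kb did not all separate. H2-Ab1 per Cd74 lay below ctrl-2 in both mutants, and H2-DMa per H2-Aa lay above it in cKO;S/+ but overlapped it in cKO;S/S. H2-Aa per H2-Ab1 and H2-DMa per H2-DMb1 overlapped ctrl-2 in both. The ratios were chosen after the values had been seen and are given as a description, with no test. How often ratios of other genes separate was not examined.

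**Figure D3:**
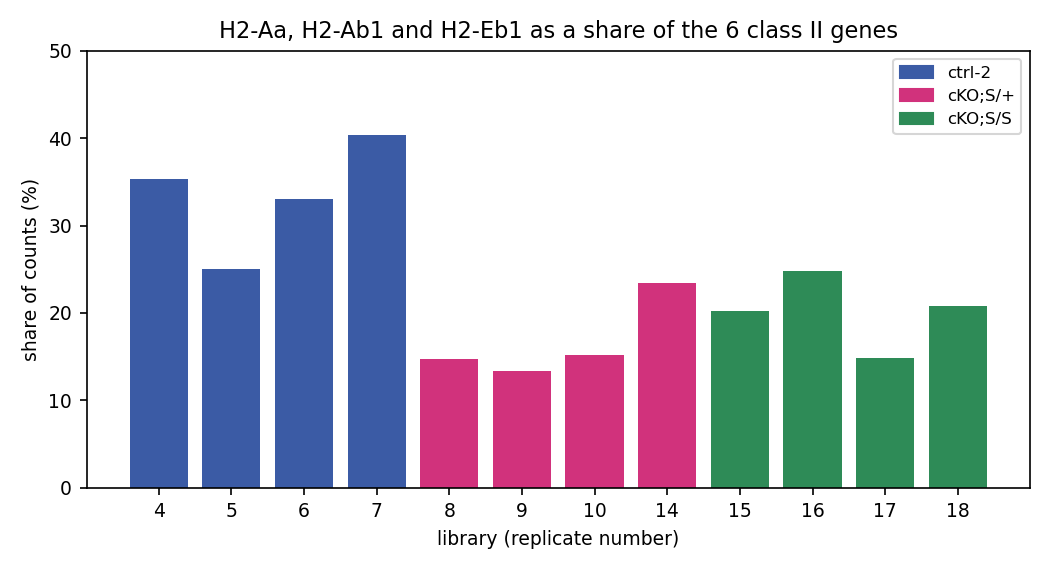
Counts of H2-Aa, H2-Ab1 and H2-Eb1 as a percentage of the counts of all 6 measured class II genes (y axis) in each library (x axis, replicate number), coloured by genotype. The 4 ctrl-2 bars reach 25.1 to 40.4%, and the 8 mutant bars 13.4 to 24.8%.

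Markers of microglia moved with Cd74 and the DM genes between ctrl-2 and cKO;S/+, but not in step in every library. Of the 13 markers 8 were higher in cKO;S/+ than in ctrl-2 and 0 lower. They summed to 2813, 4051, 2318 and 2036 CPM in ctrl-2 replicates 4 to 7, to 5137, 4147, 5753 and 3448 in cKO;S/+ and to 3099, 2909, 3610 and 2699 in cKO;S/S. The libraries highest in Cd74, cKO;S/+ replicates 8, 9 and 10, were also highest in this sum. Yet ctrl-2 replicate 5, at 4051 just below cKO;S/+ replicate 9, held 14.4 CPM of Cd74 against 33.8 in that library. With the mean of these markers as a term in the fit, Cd74 differed between cKO;S/+ and ctrl-2 by 0.27 ± 0.394 (SE, adjusted p = 0.972, edgeR). H2-DMa differed by 0.32 ± 0.24 (adjusted p = 0.964). With this term 0 of all genes passed in that comparison, so the loss of the calls was not particular to these members. Beyond this the part of the markers in the result was not tested. Per 1000 CPM of microglia markers, H2-DMa was at 2.48, 2.09, 2.30 and 2.17 CPM in ctrl-2, against 3.49, 3.78, 3.24 and 2.48 in cKO;S/+. The lowest cKO;S/+ library thus met the highest control, and cKO;S/S, at 2.07 to 3.41, overlapped ctrl-2. Cd74 and H2-DMb1 overlapped between ctrl-2 and cKO;S/+ on that scale. Their means were 6.28 and 7.13 CPM for Cd74, and 1.22 and 1.34 CPM for H2-DMb1. On that scale H2-Aa was at 1.31, 0.424, 1.43 and 1.76 CPM in ctrl-2, against 0.437, 0.524, 0.298 and 0.320 in cKO;S/+, so ctrl-2 replicate 5, the ctrl-2 library richest in microglia markers, lay among the mutants.

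**Figure D4:**
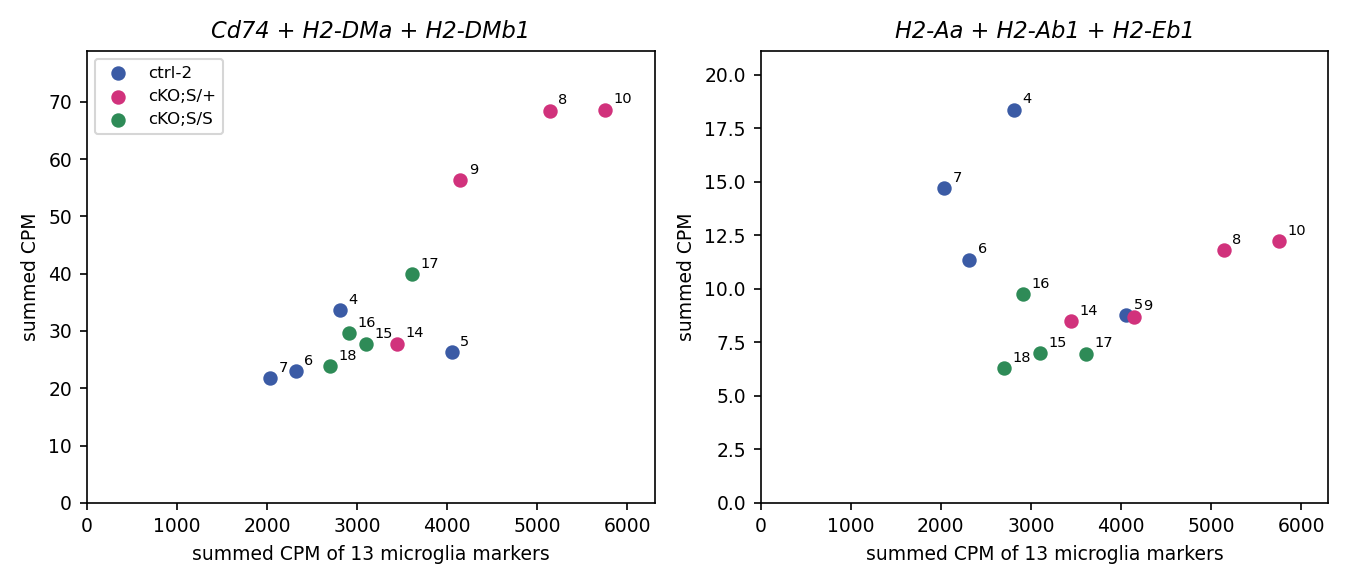
Summed CPM of Cd74, H2-DMa and H2-DMb1 (left) and of H2-Aa, H2-Ab1 and H2-Eb1 (right) against the summed CPM of 13 microglia markers, one point per library, numbered by replicate and coloured by genotype. On the left the highest points, up to 68.6 CPM, lie at high marker sums, but ctrl-2 library 5 lies at 26.25 CPM with a marker sum of 4051. On the right the highest values, 18.4 and 14.7 CPM, belong to ctrl-2 libraries 4 and 7, which are low in the marker sum.

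Markers of border-associated macrophages, which carry class II at rest, did not rise in cKO;S/+. Of 9 measured (10 listed) 0 were higher and 1, Cbr2, was lower by edgeR, against 6 lower before adjustment, 4 by DESeq2, 3 by the likelihood ratio test and 0 by limma-voom. Their sums lay between 75.9 and 204 CPM in ctrl-2, 50.4 and 101 in cKO;S/+, and 90.9 and 154 in cKO;S/S. The ctrl-2 replicate 4, the highest library for H2-Eb1 and H2-Ab1, also held the highest macrophage sum. It held the highest sum of 6 oligodendrocyte markers as well, at 10510 CPM. That sum lay between 3200 and 10510 CPM in ctrl-2, 3096 and 6376 in cKO;S/+, and 6471 and 7810 in cKO;S/S. Of 5 dendritic cell markers (9 listed) Itgax, Batf3 and Zbtb46 were higher in cKO;S/+ and 0 lower by edgeR, against 3 higher and 1 lower by DESeq2 and the likelihood ratio test and 0 by limma-voom. The other 2 measured markers, Clec10a and Flt3, differed by -1.25 (adjusted p = 0.0994, edgeR) and -0.21 (adjusted p = 0.704) on the log2 scale. The list had sums of 12.65 to 14.98, 16.95 to 46.22 and 15.16 to 19.28 CPM in the 3 genotypes, and Itgax is also carried by activated microglia. The measured B cell marker, Cd79b, was at 1.60 to 4.38 CPM, the measured T cell marker, Cd4, at 0.458 to 1.96 CPM, and 3 monocyte and neutrophil markers summed to 1.41 to 3.57 CPM, with 0 called in these lists by edgeR and limma-voom, 1 (among the 3) by DESeq2 and the likelihood ratio test, and 1 before adjustment in cKO;S/+ against ctrl-2. The other listed markers of these cells were not analysed here. Of 8 immediate early genes, which dissociation can induce, 7 were higher in cKO;S/+, with sums of 1458 to 2760, 3115 to 5677 and 2382 to 4260 CPM. The part of these cells and genes in the results was not tested.

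Presence of Xist also ran with Cd74 in cKO;S/+: replicates 8, 9 and 10, which had Xist, held 33.8 to 42.4 CPM of Cd74, and replicate 14, which lacked it, held 16.3 CPM. In ctrl-2 the library with Xist, replicate 7, had 14.9 CPM of Cd74, and in cKO;S/S replicates 16 and 17 had 20.4 and 22.7 CPM against 14.7 and 13.1 CPM in the libraries lacking Xist. H2-DMa showed no such order in cKO;S/S, at 6.03 and 12.3 CPM with Xist and 9.86 and 7.98 CPM without. With Xist as a term, Cd74 differed by 0.65 (adjusted p = 0.230, edgeR) and H2-DMa by 1.18 (adjusted p = 0.123) in cKO;S/+ against ctrl-2, and 0 members and 0 genes passed. One ctrl-2 library with Xist and 1 cKO;S/+ library without it leave no within-sex test.

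The other genes of the pathway were read from a list of 40, of which 36 were measured. In cKO;S/+ against ctrl-2, 15 of 36 rose and 0 fell, with a median log2 difference of 0.455 against -0.00197 over all genes, where 5.9% of genes were higher. The count was 0 when any of ctrl-2 replicates 4, 6 and 7 or cKO;S/+ replicates 8 and 10 was left out, 9 without cKO;S/+ replicate 9, and 0 with Xist or the microglia markers as a term. In cKO;S/S against ctrl-2 edgeR called 0 of 36, with a median of 0.102. Before adjustment 5 were higher and 2 lower, against 11.7% of all genes in either direction and 4.87% lower. DESeq2, limma-voom and the likelihood ratio test called 0. Between the mutants edgeR called 0 of 36, with a median of 0.417. Before adjustment 20 were higher in cKO;S/+ and 1 lower, against 18.3% of all genes in either direction and 9.17% higher. DESeq2 called 12, the likelihood ratio test 10 and limma-voom 0. The genes with values given next are among the 12 with the smallest adjusted p, apart from those that did not pass.

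H2-Oa and H2-Ob, which encode the H2-O inhibitor of H2-DM, rose in cKO;S/+. H2-Ob stood at 1.96, 2.20, 0.896 and 1.70 CPM in ctrl-2, at 6.30, 4.75, 6.81 and 2.82 CPM in cKO;S/+, and at 2.10, 2.99, 2.88 and 1.76 CPM in cKO;S/S, so all 4 cKO;S/+ libraries were above ctrl-2 by a log2 difference of 1.61 ± 0.313 (SE, adjusted p = 0.0199, edgeR). H2-Oa stood at 1.43, 2.96, 1.23 and 0.874 CPM in ctrl-2, at 4.84, 4.35, 6.71 and 2.98 CPM in cKO;S/+, and at 3.60, 2.81 and 3.20 CPM in cKO;S/S replicates 15, 16 and 17, with replicate 18 just below them. Its log2 difference between cKO;S/+ and ctrl-2 was 1.53 ± 0.334 (adjusted p = 0.0229). For H2-Oa, cKO;S/+ replicate 14 and ctrl-2 replicate 5 nearly met, and 3 of the ctrl-2 libraries were below every mutant library. Both genes are best known from B cells and thymic epithelium, and the B cell marker Cd79b did not pass in any comparison of edgeR.

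Of 7 genes for processing of antigen and invariant chain, 5 rose in cKO;S/+ and 0 fell. Ctss, the cathepsin that makes the last cut towards CLIP in antigen-presenting cells, ranged from 321 to 653 CPM over the ctrl-2 libraries and from 592 to 1438 over those of cKO;S/+ (1.34 ± 0.302 on the log2 scale, SE, adjusted p = 0.0243, edgeR). Ctsd rose by 1.07 (adjusted p = 0.0201) and Ctsb by 0.98 (adjusted p = 0.0208). These lysosomal proteases act far beyond class II. Cd83, whose product keeps class II at the surface by opposing the ligase MARCH1, had the largest difference of the 36 genes. It stood at 96.0, 225, 116 and 111 CPM in ctrl-2, then 761, 571, 683 and 272 CPM in cKO;S/+, and 276, 170, 344 and 170 CPM in cKO;S/S. The log2 difference was 2.06 ± 0.356 (SE, adjusted p = 0.0177). Its cKO;S/+ libraries were all above ctrl-2, and the cKO;S/S libraries overlapped ctrl-2. March1 itself differed by 0.44 (adjusted p = 0.128).

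Of 8 genes of the interferon gamma input, 4 rose in cKO;S/+. Irf8 was higher by 1.44 ± 0.279 on the log2 scale (SE, adjusted p = 0.0197, edgeR) and Irf1, which drives an interferon-inducible Ciita promoter, by 1.29 ± 0.262 (adjusted p = 0.0210). Irf1 stood at 19.7, 27.5, 19.2 and 19.3 CPM in ctrl-2, at 66.1, 52.4, 64.7 and 25.8 CPM in cKO;S/+, and at 37.0, 27.3, 39.6 and 23.5 CPM in cKO;S/S, with replicate 14 within ctrl-2. Of 5 genes for T cell ligands 3 rose, Icosl by 0.86 (adjusted p = 0.0186), Cd86 by 1.07 (adjusted p = 0.0228) and Cd274, which encodes PD-L1, by 0.97 (adjusted p = 0.0240). Cd40 and Cd80 differed by -0.0046 and 0.42 without passing.

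The genes for proteins that bind the X and Y boxes are Rfx5, Rfxank, Rfxap, Nfya, Nfyb, Nfyc and Creb1. Of these, 0 of 7 passed between cKO;S/+ and ctrl-2 by the quasi-likelihood test of edgeR, against 7.28% of all genes. So few genes cannot show a difference from that share. Before adjustment 2 were higher, the likelihood ratio test and limma-voom called 0 and DESeq2 called 1. The values nearest the threshold were 0.35 ± 0.117 for Nfya (SE, adjusted p = 0.0845) and 0.30 ± 0.102 for Rfx5 (adjusted p = 0.0988), and the median of the 7 was 0.102. The genes for partners of CD74 as a receptor, Mif, Cd44 and Cxcr4, differed by 0.20, 0.12 and -0.37 on the log2 scale (adjusted p of 0.204, 0.718 and 0.125, edgeR). Of these 3, edgeR, DESeq2, limma-voom and the likelihood ratio test called 0, and before adjustment edgeR had 1 higher and 1 lower.

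**Figure D5:**
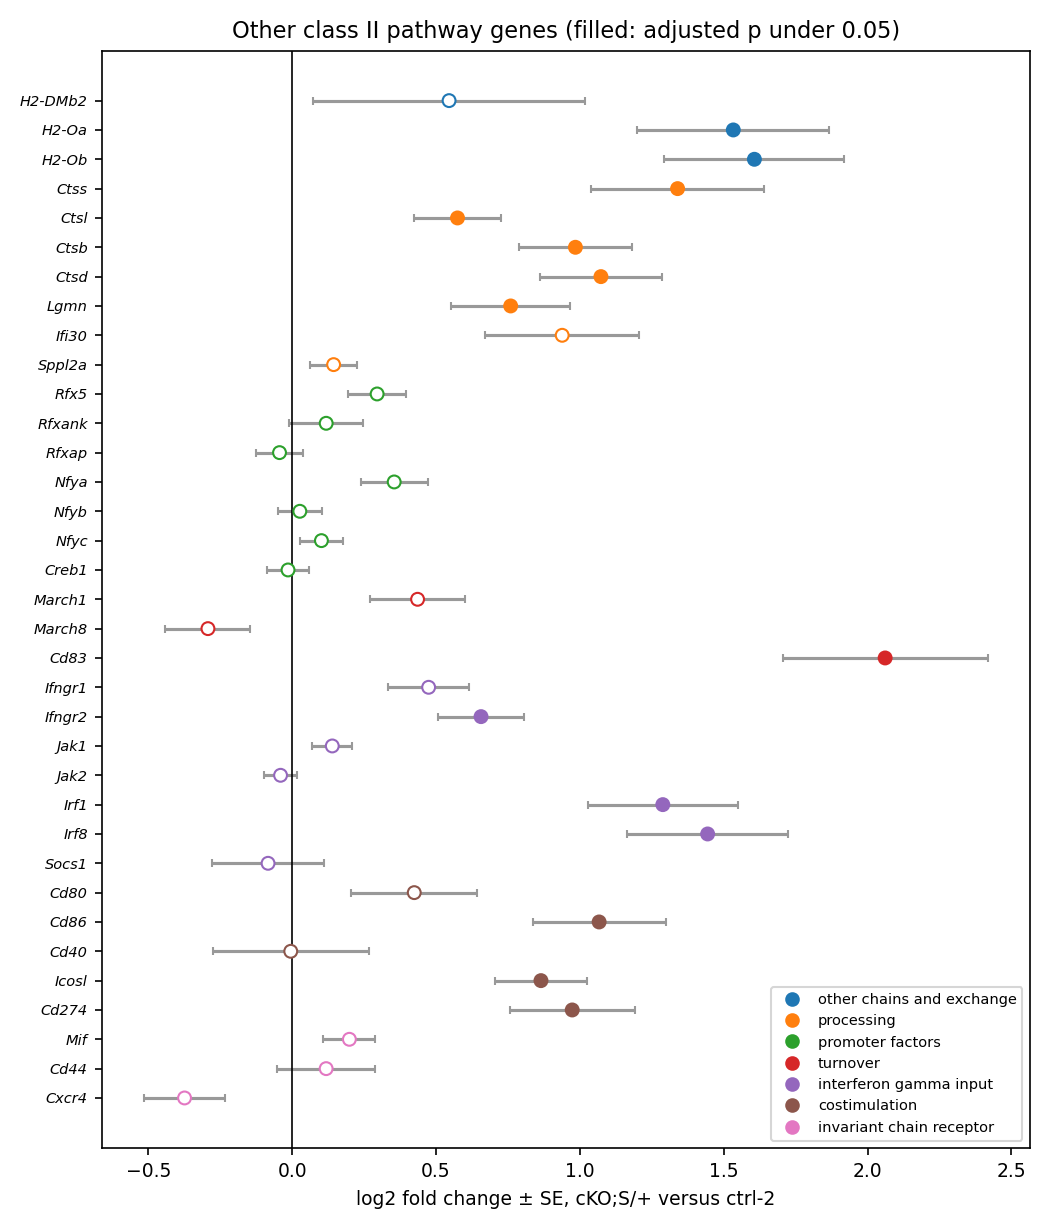
Log2 fold change with its standard error (x axis) of 35 of the 36 measured pathway genes outside the members (y axis, coloured by role) in cKO;S/+ against ctrl-2, with filled points for an adjusted p under 0.05. The 14 filled points all lie above 0 and come from the H2-O chains, proteases, Cd83, interferon gamma genes and T cell ligands, and none of the 7 promoter factors is filled.

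The genes whose pattern over the 12 libraries was most like the mean of H2-Aa, H2-Ab1, H2-Eb1 and Cd74 (standardised log2 CPM, of 12662 genes whose log2 CPM averaged 2 or more) were Swsap1 (Pearson r 0.88), C2 (0.87), Cox20 (0.86), Slc30a6 (0.86), Yars2 and Sptlc1 (0.82 each), Sil1 and Ier3ip1 (0.80), and Wdr20 and Adat2 (0.79). With genotype means subtracted the first 3 were Prmt7 (0.95), Hectd3 (0.93) and Ern1 (0.92). When the mean was taken over Cd74, H2-DMa and H2-DMb1, a choice made after the values were seen, the first 6 were Epsti1, Cyba, Slfn2, Naip2, Ctsa and Ctsl (0.98 each), and over H2-Aa, H2-Ab1 and H2-Eb1 they began with Sptlc1 (0.87), Slc30a6 (0.86) and Swsap1 (0.85). These correlations are descriptions over libraries that share their depth and composition, with no test.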

How the data were processed

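RNA of 12 bead-sorted astrocyte samples was sequenced, 1 library per labelled sample in 3 genotypes. Nothing in the labels says how many mice each came from or gives a batch, so p-values measure the spread between these samples. The authors deposited raw read counts per gene, with no normalization, for 15089 genes. In their processing notes the submitters list mm10 as the build, with STAR 2.7.10a, FastQC 0.11.5, Subread 2.0.3 (featureCounts) and edgeR 4.2.1. Annotation, strand setting and treatment of multi-mapping reads were not given in the sources used here, so overlapping genes and near copies may share reads. An exonic length column deposited by the authors gave the CPM per kb. The deposited 12 log2 CPM columns and 12 columns of the authors' comparisons (fold change, log2 fold change, p-value and false discovery rate) were not used. Every gene had at least 0.5 CPM in at least 4 libraries, so low genes had been left out before deposit.

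The tests used R 4.3.3 with limma 3.58.1 and edgeR 4.0.16, with filterByExpr (minimum count 10, total 15, which removed 0 genes), TMM scaling, 1 quasi-likelihood fit of 12 libraries by genotype (9 residual and 3.78 prior degrees of freedom), two-sided tests, Benjamini-Hochberg adjustment over 15089 genes and a threshold of 0.05. Log2 CPM used a prior count of 2. The fit was tested on simulated data. Alternatives were upper-quartile and RLE scaling, no filter, at least 1 CPM in 4 libraries, DESeq2 1.42.0, limma-voom, the likelihood ratio test, the 2 groups alone and each library left out. Terms for Xist (above 10 CPM) and for microglia markers were added after seeing the data. Promoters are from RefSeq GRCm38.p6. Of the 15089 symbols, 14372 matched RefSeq. Members and lists were chosen with earlier results of these data known. All members are named, with called pathway genes up to 12 by adjusted p (1 of them is counted but not reported here), and genes most like the members by correlation. Figures used matplotlib 3.10.9, pandas 2.3.3 and numpy 2.4.6 in Python 3.11.15.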

Additional observations from a re-analysis of the deposited data

Results flagged for a closer look

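Cd74 in ctrl-2 replicate 4, at 22.5 CPM, stood apart from the other 3 ctrl-2 libraries, which lay between 14.4 and 14.9 CPM. Its gap to the nearest library exceeded Dixon's limit for 4 samples. Of 18 groups of 4 libraries tested (6 members in 3 genotypes) 1 did so, and chance gives about 1 in 20. The same library was the highest for H2-Eb1 and H2-Ab1. Without it the log2 fold change of Cd74 in cKO;S/+ against ctrl-2 was 1.21 (adjusted p = 0.0593, edgeR).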

How the results depend on the processing

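Depth (16506627 reads or more) gave 17 reads or more per member and library, so H2-Aa and H2-Eb1 are the least precise. No paired analysis was run, because the labels give no litter or other pairing of the samples. In cKO;S/+ against ctrl-2, 1098 genes passed, 1865 by DESeq2, 668 with the 2 groups alone and 0 to 2578 with 1 library left out (0 without replicate 4, 6, 7 or 8, 37 without replicate 10, 468 without replicate 9 and 2578 without replicate 14). Of the 2 members called, DESeq2 and the likelihood ratio test called 3 in all (with H2-DMb1), limma-voom and the 2 groups alone 1, and leaving out 1 library 0 to 3. With Xist or the microglia markers as a term, 0 genes and 0 members passed. In cKO;S/S against ctrl-2, 0 genes passed, 51 by DESeq2, 48 by the likelihood ratio test and 0 to 5 with 1 library left out. Between the mutants, 0 genes passed, 626 by DESeq2, 476 by the likelihood ratio test and 0 to 1677 with 1 library left out, where members ranged from 0 to 3, against 1 by DESeq2 and by the likelihood ratio test. The cause was not tested.

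Directions of all 6 members held under both scalings, both filters and all tests, and changed as follows. With 1 library left out, H2-Ab1 in cKO;S/+ against ctrl-2 ran from -0.28 to 0.041 (positive without replicate 4). In cKO;S/S against ctrl-2, Cd74 ran from -0.047 (without replicate 17) to 0.28, and H2-DMb1 from -0.11 (without replicate 17; -0.043 without replicate 7) to 0.22. With Xist as a term Cd74 and H2-DMb1 were -0.11 and -0.065 there, and with microglia markers -0.12 and -0.16.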
